A study of Mus musculus with 6 samples.

Results

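Endothelial cells of the liver, among them those that line the sinusoids, were followed through 10 marker genes. The markers were Stab1, Stab2, Lyve1, Plvap, Pecam1, Kdr, Cdh5, Eng, Tek and Vwf. How far these genes single out sinusoidal cells from other endothelium was not tested. The genes were taken by symbol from a table of 23474 Ensembl mouse genes, all 10 had a row, and all 10 passed the filter on low values. Male C57BL/6J mice ate a high-fat diet (HFD), either plain or, in the BT group, mixed with an extract of the oriental herbal medicine Bangpungtongseong-san at 1.5% by weight. It used 20 mice in 2 groups of 10, began the diets at 5 weeks of age and kept them for 12 weeks. Whole liver at 17 weeks gave the 3 HFD and 3 BT libraries used here. Both groups were thus on the high-fat diet, and no group on ordinary chow was analysed here. Whether each library came from 1 mouse or from pooled mice is not stated, and each p-value reflects how these libraries vary, which may be technical. The codes in the sample descriptions carry the letter D for HFD and R for BT. What the letter stands for is not stated, and it cannot be told apart from the diet.

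Sinusoidal endothelium differs from other capillaries in its open pores, its lack of a tight basement membrane and its high uptake of waste molecules from blood. The stabilins Stab1 and Stab2 are large scavenger receptors that take up modified proteins, matrix fragments and, for Stab2, hyaluronan, and Lyve1 is a hyaluronan receptor shared with lymphatic vessels. Kdr encodes VEGF receptor VEGFR2, Tek the angiopoietin receptor TIE2, and Eng a co-receptor for the circulating ligands BMP9 and BMP10. Cdh5 (VE-cadherin) and Pecam1 hold endothelial cells together, Plvap forms the diaphragms of caveolae and fenestrae, and Vwf makes the von Willebrand factor that captures platelets.

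Of the 10 genes, 5 had an entry in the RefSeq promoter table (GRCm38.p6): Stab1, Stab2, Kdr, Eng and Tek. The 250 bases before the start site are printed 5′ to 3′ on the gene's strand for Stab1 and Stab2, the related pair of receptors whose values lay in opposite directions, and for Kdr, the receptor of the VEGF ligand that differed between the diets. The windows lie at chr14:31168642-31168891 (Stab1), chr10:87007943-87008192 (Stab2) and chr5:75978456-75978705 (Kdr), all on the minus strand. Capitals mark matches, on either strand, to 4 short motifs of factor families active in endothelium. The letters searched were GGAAG for the core that ETS factors read. For factors of the SOX family they were ACAAT. For GATA-family proteins such as Gata4, they were AGATAA. The fourth motif, read by factors like Klf2, was CACCC.
Stab1: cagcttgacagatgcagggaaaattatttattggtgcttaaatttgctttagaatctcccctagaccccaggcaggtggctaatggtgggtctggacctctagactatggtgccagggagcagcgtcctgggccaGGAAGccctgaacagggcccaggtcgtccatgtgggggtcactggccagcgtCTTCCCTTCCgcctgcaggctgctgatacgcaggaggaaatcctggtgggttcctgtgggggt
Stab2: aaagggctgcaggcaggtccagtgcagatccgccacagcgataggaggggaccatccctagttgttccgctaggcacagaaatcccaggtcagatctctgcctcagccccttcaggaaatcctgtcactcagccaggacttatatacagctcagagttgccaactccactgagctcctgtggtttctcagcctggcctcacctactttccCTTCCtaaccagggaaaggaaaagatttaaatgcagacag
Kdr: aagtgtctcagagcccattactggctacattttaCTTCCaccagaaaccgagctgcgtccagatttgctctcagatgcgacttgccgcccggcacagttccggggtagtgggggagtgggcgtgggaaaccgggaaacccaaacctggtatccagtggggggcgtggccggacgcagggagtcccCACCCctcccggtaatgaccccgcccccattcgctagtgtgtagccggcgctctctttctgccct
Stab1 held 3 ETS matches, of which a pair adjoin each other, Stab2 held 1, and Kdr held 1 ETS and 1 KLF match. None of these windows held the SOX or GATA letters. Among all 32851 promoter windows of this length in the table, 64.1% held the ETS letters, 27.7% SOX, 9.99% GATA and 52% KLF, so the matches describe these windows and no more.

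Expression is given in FPKM, which divides fragments by the length of the transcript and by the mapped total of the library. Changes between the diets, also where a gene rose, fell or differed by a value, are in log2(FPKM + 1). The smallest steps between low values place the libraries within a narrow range of depth. By limma on log2(FPKM + 1), over 10476 genes averaging 1 FPKM or more and at an adjusted p of 0.05, 1398 genes (13.3%) passed between the diets, 6.01% higher and 7.33% lower with BT. At an unadjusted p of 0.05, 32.4% passed, and in 39.3% the ranges of the diets were apart. Of the genes that passed, 45.1% were higher with BT, and 33.6% were with median-of-ratios scaling. The number passing was 173, 324 and 589 without BT replicate 1, 2 and 3 in turn, and 621 without HFD replicate 2. Genes with short transcripts had lower values with BT and those with long transcripts higher ones: the median BT minus HFD change was -0.31 in 1333 genes of up to 1500 bases and 0.24 in 1338 genes of over 6000 bases. Alb is listed at 0 in HFD replicate 3, so a gene at 0 is reported only as listed at 0.

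None of the 10 endothelial genes passed the test between the diets, at 0 higher and 0 lower, against the 13.3% of all genes that did. At an unadjusted p of 0.05, 2 of the 10 passed, Stab1 and Plvap, against 32.4% of all genes. In no member did the BT values separate from the HFD values, against 39.3% of all genes. The median change of the 10 was -0.0060 on the log2(FPKM + 1) scale, with 5 above and 5 below 0, against 0.07 over all genes tested. In bulk tissue, fewer cells of a type and less RNA per cell cannot be told apart.

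In level per length, Eng, Stab1 and Plvap formed an upper tier, with means over the 6 libraries of 19.6, 17.7 and 16.9 FPKM. The other 7 genes followed from Kdr at 4.05, through Cdh5 at 3.24, Lyve1 at 3.07, Stab2 at 2.74, Vwf at 2.72 and Pecam1 at 2.38, to Tek at 1.53 FPKM. The ranges of neighbours in this order overlapped except between Plvap (lowest 12.4 FPKM) and Kdr (highest 5.24 FPKM) and between Pecam1 (lowest 2.02 FPKM) and Tek (highest 1.93 FPKM). Summed over the 10 genes, the level was 66.1 to 88.5 FPKM in the HFD libraries and 63.2 to 79.0 FPKM in the BT libraries, which overlap.

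**Figure D1:**
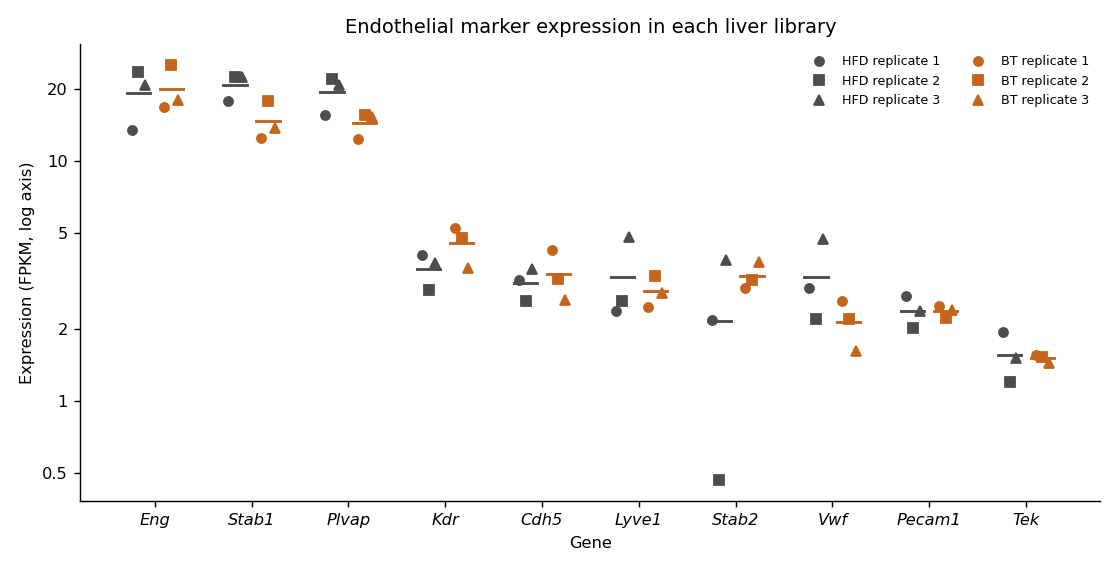
Expression of the 10 endothelial genes in FPKM on a log axis, with a point per library (grey HFD, orange BT, symbols for replicates) and a bar at each diet's mean of 3. Eng, Stab1 and Plvap lie above 12 FPKM in every library and the other 7 below 5.3 FPKM, and the lone low point is Stab2 in HFD replicate 2, at 0.468 FPKM.

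Among the scavenger receptors, Stab1 (ENSMUSG00000042286, chromosome 14, 31139013 to 31168641) was at 17.7337, 22.3 and 22.3 FPKM in HFD replicates 1 to 3 and at 12.4, 17.7403 and 13.8 FPKM in BT replicates 1 to 3. BT replicate 2 lay just above HFD replicate 1, and otherwise the BT values were the lower ones. The means were 20.8 ± 2.65 and 14.7 ± 2.76 FPKM (SD, n = 3 each), a change of -0.48 ± 0.15 (SE, 95% interval -0.83 to -0.14) that did not pass at adjusted p = 0.0668. It passed without HFD replicate 1 (-0.59, adjusted p = 0.0485) and after removal of the dependence on transcript length and GC content, library by library (-0.70, adjusted p = 0.0256). With a block on the replicate number, which was not taken to pair libraries, it also passed (adjusted p = 0.0304).

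Stab2 (ENSMUSG00000035459, chromosome 10, 86841198 to 87008025) was at 2.16, 0.468 and 3.86 FPKM with HFD and at 2.95, 3.19 and 3.79 FPKM with BT. The 3 BT values lie within the HFD range, and HFD replicate 2 stands far below the other libraries, at roughly 53.0 fragments. The means of 2.16 ± 1.69 and 3.31 ± 0.433 FPKM gave a change of 0.60 ± 0.37 (95% interval -0.23 to 1.44, adjusted p = 0.284). Without HFD replicate 2 it was 0.13 (adjusted p = 0.717), and without HFD replicate 3 it was 0.99 (adjusted p = 0.0677). In HFD replicate 2, genes with transcripts over 6000 bases had a median deviation from the HFD mean of -0.16, while Stab2 deviated by -0.94 and Stab1, of similar length (7999 against 8228 bases), by 0.11. With the length and GC trend removed, the change of Stab2 between the diets was 0.38 (adjusted p = 0.476). The part of transcript length in the low Stab2 value of HFD replicate 2 was not tested.

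Within each library Stab1 stood above Stab2 on the log2(FPKM + 1) scale, by 2.57, 3.99 and 2.26 in the HFD libraries and by 1.77, 2.16 and 1.63 in the BT libraries. The groups do not overlap, with means of 2.94 ± 0.92 and 1.85 ± 0.28 (SD, n = 3 each). The 2-sided exact permutation p was 0.1, the smallest that 3 libraries against 3 can give, and the pair was set against each other after their values were seen. Both genes have 69 exons in their longest annotated transcript, and other genes' exons cover 1.09% of the exon bases of Stab1 and 1.61% of those of Stab2.

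Lyve1 (ENSMUSG00000030787, chromosome 7, 110850607 to 110863239) was at 2.38, 2.62 and 4.83 FPKM with HFD and at 2.45, 3.31 and 2.82 FPKM with BT. HFD replicate 3 was the highest and the other 5 libraries lay close together. The change was -0.11 ± 0.21 (95% interval -0.59 to 0.37, adjusted p = 0.744), and it was 0.14 without HFD replicate 3.

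Among the signalling receptors, Kdr (ENSMUSG00000062960, chromosome 5, 75932827 to 75978458) was at 4.05, 2.90 and 3.75 FPKM with HFD and at 5.24, 4.78 and 3.59 FPKM with BT. BT replicates 1 and 2 were the highest libraries and BT replicate 3 fell among the HFD values, so the groups overlap. The change was 0.28 ± 0.16 (95% interval -0.09 to 0.64, adjusted p = 0.259). Tek (ENSMUSG00000006386, chromosome 4, 94739289 to 94874976) was at 1.93, 1.20 and 1.51 FPKM with HFD and at 1.56, 1.52 and 1.44 FPKM with BT. The 3 BT values lie inside the HFD range, and the change was -0.01 ± 0.14 (95% interval -0.33 to 0.30, adjusted p = 0.954). Eng (ENSMUSG00000026814, chromosome 2, 32646595 to 32682669), the most abundant of the 10, was at 13.5, 23.6 and 20.8 FPKM with HFD and at 16.8, 25.2 and 17.9 FPKM with BT. Within a diet it varied more than any other member except Stab2, and the groups overlap through most of their range. Its change was 0.06 ± 0.22 (95% interval -0.44 to 0.56, adjusted p = 0.863).

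Among the junction and membrane genes, Cdh5 (ENSMUSG00000031871, chromosome 8, 104101625 to 104144511) was at 3.18, 2.62 and 3.54 FPKM with HFD and at 4.27, 3.21 and 2.63 FPKM with BT. BT replicate 1 was the highest and the rest mixed, with a change of 0.08 ± 0.16 (95% interval -0.30 to 0.45, adjusted p = 0.767). Pecam1 (ENSMUSG00000020717, chromosome 11, 106654217 to 106750628) was at 2.75, 2.02 and 2.37 FPKM with HFD and at 2.50, 2.22 and 2.40 FPKM with BT. It was the steadiest of the 10 within a diet, with an SD of 0.12 on the log2(FPKM + 1) scale. Its change of 0.0016 ± 0.13 had a 95% interval of -0.29 to 0.29 (adjusted p = 0.995), so a difference of more than 0.29 in either direction lies outside the interval.

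Plvap (ENSMUSG00000034845, chromosome 8, 71497765 to 71511752) was at 15.5, 22.0 and 20.8 FPKM with HFD and at 12.4, 15.6 and 15.3 FPKM with BT. As for Stab1, 1 BT library lay just above the lowest HFD library and the rest were lower. The means were 19.4 ± 3.45 and 14.4 ± 1.79 FPKM (SD, n = 3 each), a change of -0.40 ± 0.15 (95% interval -0.75 to -0.05) that did not pass at adjusted p = 0.113. It passed without HFD replicate 1 (-0.54, adjusted p = 0.0392) and with a block on the replicate number (adjusted p = 0.0412). With the length and GC trend removed it was -0.21 (adjusted p = 0.297). Plvap has the shortest longest transcript of the 10, at 1987 bases.

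Vwf (ENSMUSG00000001930, chromosome 6, 125546774 to 125686679) was at 2.95, 2.19 and 4.75 FPKM with HFD and at 2.61, 2.20 and 1.61 FPKM with BT. HFD replicate 3 was the highest and BT replicate 3 the lowest library, and the groups overlap between 2.19 and 2.61 FPKM. The change was -0.42 ± 0.22 (95% interval -0.93 to 0.09, adjusted p = 0.222), and -0.19 without HFD replicate 3. With the length and GC trend removed it was -0.66 (adjusted p = 0.0712). Megakaryocytes and platelets also make Vwf. The platelet integrin gene Itga2b was at 1.78 to 3.24 FPKM with HFD and 1.20 to 1.71 FPKM with BT (-0.58 ± 0.18, adjusted p = 0.0673), while Gp9 was at or below 0.186 FPKM and Pf4 at or below 1.92 FPKM in every library. The part of platelet RNA in the Vwf values was not tested.

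**Figure D2:**
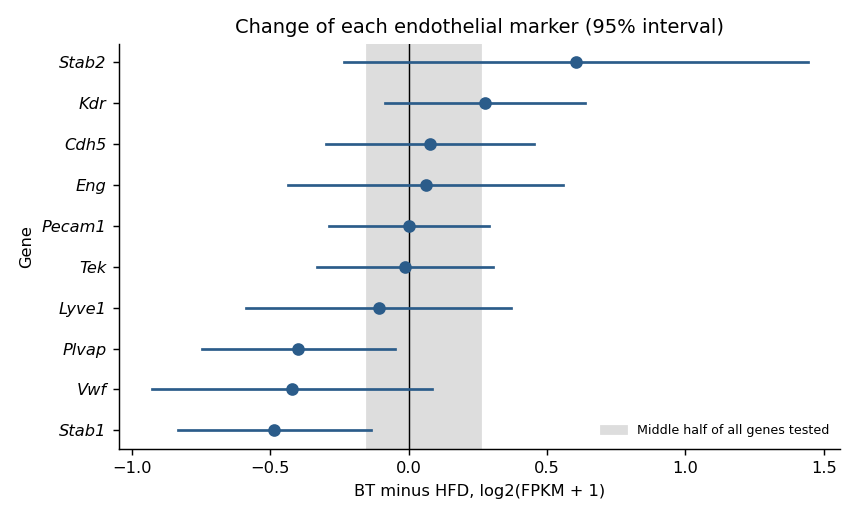
Change of each endothelial gene, BT minus HFD on the log2(FPKM + 1) scale, as a point with its 95% interval from limma, over a band from the lower to the upper quartile of all 10476 genes tested. The intervals of Stab1 and Plvap lie below 0 and the other 8 include 0, and Stab2 has the widest interval, -0.23 to 1.44.

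Seen by library, the 10 genes did not share a diet pattern. Their mean deviation from each gene's own average over the 6 libraries was -0.04, -0.15 and 0.25 in HFD replicates 1 to 3 and -0.03, 0.07 and -0.10 in BT replicates 1 to 3. The spread between HFD replicates 2 and 3 exceeded the difference between the diet means, which was -0.04. In HFD replicate 2 Stab1, Plvap and Eng were above their own averages, by 0.35, 0.38 and 0.28, and the other 7 were below theirs. Stab2 was the furthest below there, at -1.25, and made up most of the low mean of that library. In HFD replicate 3, Vwf (0.67), Lyve1 (0.55) and Stab2 (0.48) were the furthest above. The SD within a diet ranged from 0.12 for Pecam1 and 0.15 for Tek to 0.35 for Vwf, 0.35 for Eng and 0.63 for Stab2, and that of Stab2 was at the 98.6th percentile of all genes tested.

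**Figure D3:**
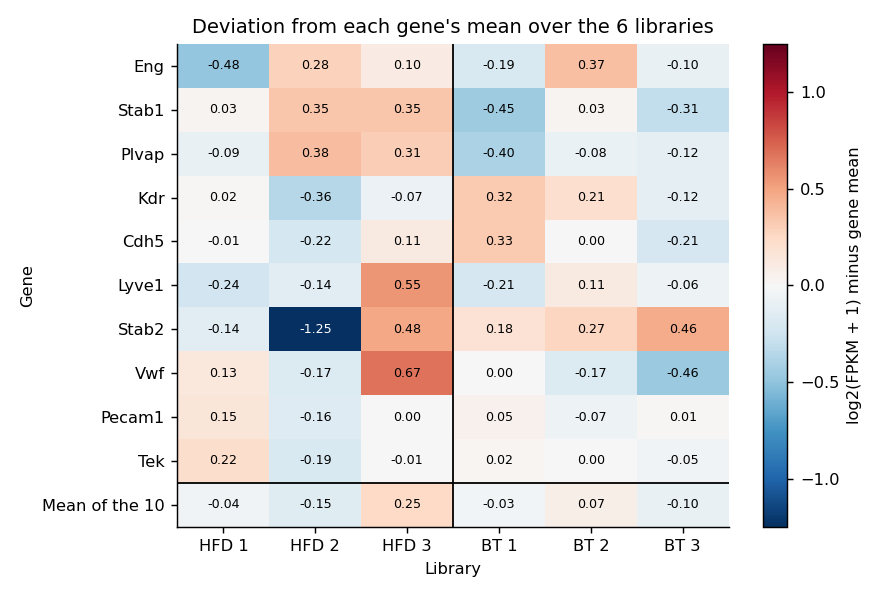
Deviation of log2(FPKM + 1) from each gene's mean over the 6 libraries (rows, in order of level; the last row is the mean of the 10 genes), by library (columns, HFD left and BT right of the line). Stab2 in HFD replicate 2 is the lowest cell at -1.25, and the mean row runs from -0.15 to 0.25 with no step between the diets.

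The genes whose deviations lay nearest to that mean profile, by the root mean square difference over the 6 libraries among 9968 named protein-coding genes outside the 10, were Cuedc1 (0.03), Pdgfc (0.04), Osbpl11 (0.04), Zfp948 (0.04) and Trp53inp2 (0.04). Like the profile, all of these were highest in HFD replicate 3 and lowest in HFD replicate 2, and their diet changes ran from -0.11 to 0.01. The genes were picked by that nearness, so their order and small changes (adjusted p = 0.559 to 0.983) follow from the choice.

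The label was checked against further sinusoidal genes. Of 20 such genes, 15 passed the filter. Fcgr2b, the inhibitory Fc receptor that clears immune complexes, was at 16.8 to 25.2 FPKM, Ehd3 at 6.38 to 9.35, Oit3 at 3.48 to 5.82 and Gpr182, a chemokine-scavenging receptor, at 3.03 to 3.76 FPKM. Below the filter were Wnt9b (at or below 0.164 FPKM), Thbd (at or below 0.684), Tfec (at or below 0.861) and Kit (mean 0.985). Clec4g, a sinusoidal lectin, is listed at 0 in all 6 libraries. Markers of other endothelium were mixed. Of 12 large-vessel and portal genes 6 passed the filter, among them Ly6a (6.11 to 22.6 FPKM), Icam1 (2.43 to 7.59) and Vcam1 (2.05 to 4.20), which other cells also make, while Cd34 was at or below 0.181 FPKM and Sele at or below 0.0475. Of 5 lymphatic genes in the table, Prox1 (11.9 to 27.9 FPKM) and Reln (7.81 to 11.3) passed the filter, while Pdpn was at or below 0.137 and Mmrn1 at or below 0.0736 FPKM. None of the 15 sinusoidal genes passed between the diets, where 13.3% of all genes tested did. At an unadjusted p of 0.05, 1 passed, against 32.4% of all genes, and the median change was -0.05, against 0.07. The smallest p-values belonged to Rspo3, a Wnt-enhancing factor of the central vein, and Dnase1l3, a secreted nuclease. Rspo3 was at 2.89, 2.49 and 2.97 FPKM with HFD and at 2.05, 2.16 and 1.67 with BT, without overlap (-0.36 ± 0.13, adjusted p = 0.0944). Dnase1l3 differed by -0.28 ± 0.15 (adjusted p = 0.213).

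Of 24 genes expressed across vascular endothelium, 15 were tested, 2 fell and 13 did not pass, with a median change of -0.09. The share that passed was near the 13.3% of all genes. Sox18, a transcription factor of vessel development, was at 3.48, 3.71 and 2.99 FPKM with HFD and at 1.56, 1.95 and 1.42 FPKM with BT, so each BT library was below each HFD library. It fell from 3.39 ± 0.365 to 1.64 ± 0.271 FPKM (SD, n = 3 each), a change of -0.74 ± 0.13 in log2(FPKM + 1) (adjusted p = 0.0148). Ramp2, the receptor partner through which adrenomedullin acts on endothelium, was at 9.92, 13.5 and 11.6 FPKM with HFD and at 4.82, 6.66 and 4.73 FPKM with BT, again apart. It fell from 11.7 ± 1.78 to 5.40 ± 1.09 FPKM (SD, n = 3 each), a change of -0.99 ± 0.16 in log2(FPKM + 1) (adjusted p = 0.0113). Exons of Vps25 cover 33.4% of the exon bases of Ramp2, so its value is uncertain. Both missed the threshold without BT replicate 1 (Sox18 adjusted p = 0.0685, Ramp2 adjusted p = 0.0548), and Sox18 without the length and GC trend was at -0.45 (adjusted p = 0.0472). The partner of Ramp2, the receptor gene Calcrl, was at 2.59 ± 0.664 and 2.70 ± 0.472 FPKM (0.05 ± 0.17, adjusted p = 0.848). Erg, an ETS factor of endothelial identity, was at 0.954 ± 0.289 and 1.34 ± 0.209 FPKM (0.27 ± 0.15, adjusted p = 0.257), and Gata4, a GATA factor of sinusoidal identity, at 5.50 ± 0.239 and 5.80 ± 1.08 FPKM (0.05 ± 0.14, adjusted p = 0.814).

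Of 12 large-vessel and portal genes 6 were tested and none passed, with a median change of 0.02. Ltbp4, a matrix protein that binds latent TGF-beta, was at 11.4 to 13.7 FPKM with HFD and 6.72 to 10.4 FPKM with BT (-0.53 ± 0.15, adjusted p = 0.0554). It passed with a filter of 5 FPKM, median-of-ratios scaling, quantile normalization or robust empirical Bayes, and without BT replicate 3. The Notch ligand gene Jag1 differed by 0.41 ± 0.17 (adjusted p = 0.130) and passed without HFD replicate 3. Of 2 lymphatic list genes tested none passed. Both are also made by other liver cells: Prox1, of hepatocytes, differed by 0.47 ± 0.21 (adjusted p = 0.156) and Reln, of stellate cells, by -0.19 ± 0.13 (adjusted p = 0.340). Reln passed with the length and GC trend removed. Over these 4 lists and the 10 members, 48 genes were tested, 2 passed (4.17%, against 13.3% of all genes) and 7 did not overlap between the diets, where 39.3% of all genes did not. With the length and GC trend removed, 5 of the 48 passed, where 956 of 10403 genes did, so the lower share did not hold there.

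**Figure D4:**
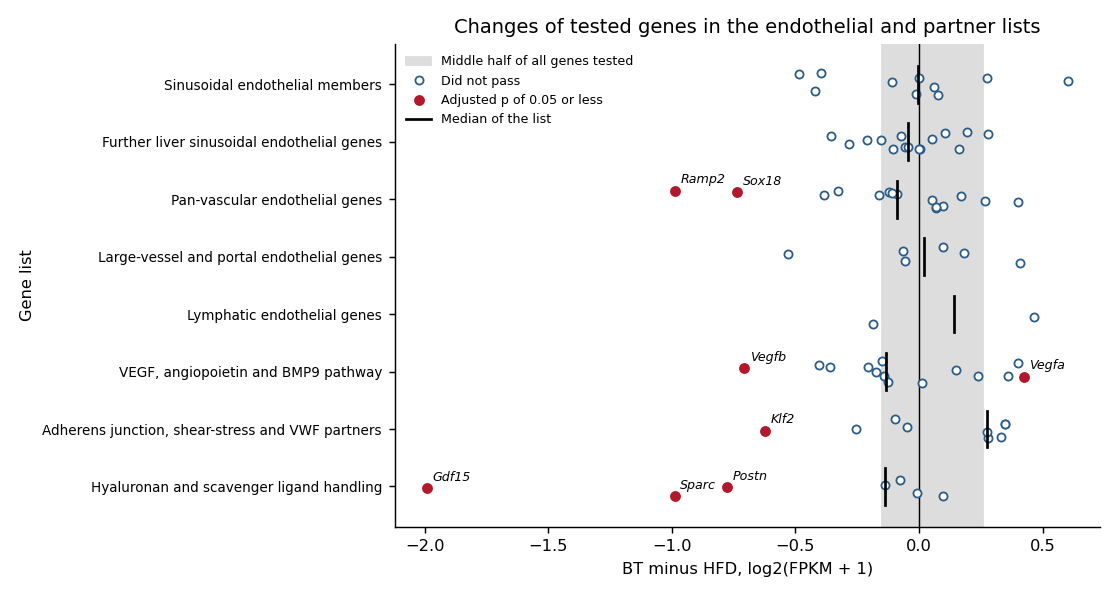
Change of each tested gene (points), BT minus HFD on the log2(FPKM + 1) scale, for 8 gene lists, with a tick at the list's median over a band from the lower to the upper quartile of all genes tested. Filled red points passed the test (adjusted p of 0.05 or less) and are named, and the rows of the 10 members, the further sinusoidal genes, the large-vessel and the lymphatic genes hold none.

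The ligands of these receptors are made largely by other cells, and 2 of the 14 tested genes of the VEGF, angiopoietin and BMP9 pathway passed, 1 in each direction (median change -0.13), a share near the 13.3% of all genes. Vegfa, the main ligand of the Kdr receptor, was at 115.0, 115.3 and 128 FPKM with HFD and at 161, 168 and 152 FPKM with BT, with every BT library above every HFD library. It rose from 119 ± 7.40 to 160 ± 7.72 FPKM (SD, n = 3 each), a change of 0.42 ± 0.10 in log2(FPKM + 1) (adjusted p = 0.0295). Vegfb, a ligand of VEGF receptor VEGFR1 that does not bind the Kdr receptor, was at 10.4, 13.8 and 14.2 FPKM with HFD and at 6.61, 7.26 and 8.32 FPKM with BT, and fell by 0.71 ± 0.14 (adjusted p = 0.0209). Vegfa missed the threshold with median-of-ratios scaling (0.35, adjusted p = 0.0641) and without 4 of the 6 libraries in turn (highest adjusted p = 0.121, without BT replicate 1). Vegfb missed it with no filter on low values (adjusted p = 0.0576), with the length and GC trend removed (-0.27, adjusted p = 0.239) and without HFD replicate 2, BT replicate 1 or BT replicate 2 (highest adjusted p = 0.0925).

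The co-receptor gene Nrp1, which binds VEGF together with the Kdr receptor, was at 9.28 to 12.7 FPKM with HFD and 11.8 to 17.7 FPKM with BT (0.36 ± 0.17, adjusted p = 0.188). The Tek ligand genes Angpt1 and Angpt2 lay below the filter, at or below 0.305 and 0.252 FPKM. Gdf2, which encodes the Eng ligand BMP9, was at 4.78 ± 0.284 and 4.28 ± 0.837 FPKM (-0.14 ± 0.14, adjusted p = 0.511). Smad5, a signal carrier of BMP receptors, differed by 0.40 ± 0.12 (adjusted p = 0.0601) and the BMP target gene Id1 by -0.41 ± 0.22 (adjusted p = 0.233).

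Of 9 tested genes of adherens junctions, flow response and von Willebrand factor partners, 1 fell and none rose (median change 0.28). The share that passed is also near the 13.3% of all genes. In 6 of the 9 the diets did not overlap, where 39.3% of all genes did not. Klf2, the flow-responsive factor of endothelium that other cells also make, was at 2.61, 3.13 and 3.35 FPKM with HFD and at 1.80, 1.14 and 1.96 FPKM with BT, without overlap, and fell by 0.62 ± 0.16 (adjusted p = 0.0383). It missed the threshold in 5 of the 6 fits without 1 library (highest adjusted p = 0.113, without BT replicate 2), with no filter (adjusted p = 0.0885), when each library was rescaled to the same sum (-0.56, adjusted p = 0.0634) and after the length and GC trend was taken out (-0.36, adjusted p = 0.175). The catenin genes, whose products anchor cadherins in hepatocytes as well as in endothelium, did not pass: Ctnnb1 differed by 0.33 (adjusted p = 0.204), Ctnna1 by 0.28 (adjusted p = 0.134), Ctnnd1 by 0.35 (adjusted p = 0.130) and Jup by 0.28 (adjusted p = 0.168). In each of these catenin genes every BT library was above every HFD library. Gm28635, annotated on the same strand, covers 61.2% of the exon bases of Ctnnd1, so its value is uncertain. Adamts13, the stellate cell protease that cuts von Willebrand factor, was at 2.43 ± 0.692 and 2.30 ± 0.496 FPKM (-0.05 ± 0.18, adjusted p = 0.866).

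**Figure D5:**
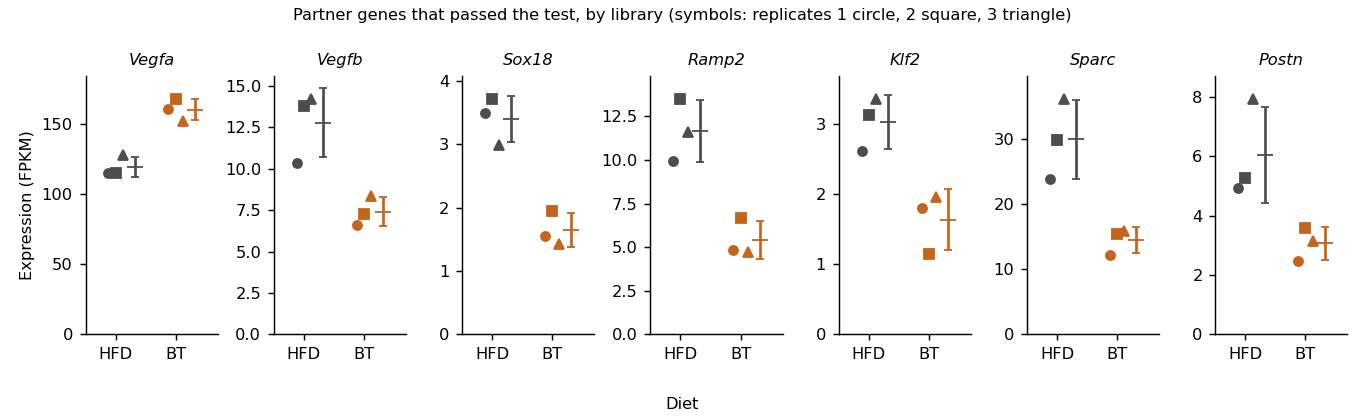
Expression in FPKM of 7 partner genes that passed the test, with a point per library, and the mean with SD (n = 3) beside the points of each diet. Gdf15, which also passed, is not drawn. Vegfa is higher in all 3 BT libraries (152 to 168 against 115.0 to 128 FPKM), and Vegfb, Sox18, Ramp2, Klf2, Sparc and Postn are lower in all 3. Of all genes tested, 39.3% did not overlap between the diets.

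Of 7 tested genes of hyaluronan turnover and scavenger ligands, 3 fell and none rose (median change -0.14). Of all genes tested, 13.3% passed, 7.33% as lower with BT. The list was chosen with earlier results of these data known. Sparc, a matrix protein that the Stab1 receptor takes up, was at 23.8, 29.8 and 36.0 FPKM with HFD and at 12.2, 15.3 and 15.9 FPKM with BT, and fell by 0.99 ± 0.16 (adjusted p = 0.0126). Postn, which encodes the matrix protein periostin, was at 4.94, 5.28 and 7.92 FPKM with HFD and at 2.48, 3.57 and 3.16 FPKM with BT, and fell by 0.78 ± 0.18 (adjusted p = 0.0303). Gdf15, a circulating stress factor made by hepatocytes among others, was the remaining gene of this list to fall (by 1.99, adjusted p = 0.00802). The hyaluronan synthase genes Has1 and Has2 and the hyaluronidase gene Hyal1 are listed at 0 throughout, and Hyal2 was at 31.2 ± 2.10 and 33.4 ± 2.69 FPKM (0.10 ± 0.11, adjusted p = 0.554). Sparc missed the threshold without BT replicate 1 (adjusted p = 0.0569), and Postn without HFD replicate 2 or any 1 of the BT replicates (highest adjusted p = 0.117), on rescaling to the same sum (adjusted p = 0.0521) and with no filter (adjusted p = 0.0808).

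Markers of neighbouring cells were read in the same libraries. Of 10 tested stellate cell markers 2 fell, Col3a1 (by 1.36, adjusted p = 0.0354) and Colec11 (by 0.59, adjusted p = 0.0310), and the median was -0.42. Among all genes tested, 13.3% passed, 7.33% as lower with BT. Col3a1 missed the threshold with no filter (adjusted p = 0.0964), with robust empirical Bayes (adjusted p = 0.0600) and without HFD replicate 2 or 3 or BT replicate 1 or 2 (highest adjusted p = 0.121). Colec11 missed it with no filter (adjusted p = 0.0692), with the length and GC trend removed (-0.41, adjusted p = 0.0767) and in 5 of the 6 fits without 1 library (highest adjusted p = 0.122, without BT replicate 1). The 12 in the table summed to 192 to 283 FPKM with HFD and 145 to 205 FPKM with BT, and Lrat, a defining one, is listed at 0. Stellate cells also make Sparc, Postn and Reln, and their part in those values was not tested. None of the 12 macrophage markers passed (median 0.12, sums of 153 to 214 and 149 to 224 FPKM). The smallest p-values there were those of Cd5l (0.43, adjusted p = 0.0503) and Csf1r (0.39, adjusted p = 0.124). Stab1 and Lyve1 can also be made by macrophages, and their part in these values was not tested.

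Among the other markers, the hepatocyte gene Ttr fell by 0.76 (adjusted p = 0.0157), 1 of 11 tested, where 13.3% of all genes passed. It missed the threshold with no filter (adjusted p = 0.0706) and without any 1 of the BT replicates (highest adjusted p = 0.0823, without BT replicate 1). No tested marker of lymphocytes (2 tested, Ptprc and Cd79b), bile ducts (Spp1 alone), adipocytes (Cfd alone) or red cells and platelets (6 tested, with the smallest p-values for Itga2b and for Hba-a2, at -0.54) passed. Adipoq, made by fat cells, was at 1.40 FPKM in HFD replicate 1 and at or below 0.198 FPKM in the others.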

How the data were processed

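Liver mRNA libraries (TruSeq, from TRIZOL total RNA) of 3 HFD and 3 BT samples were compared. The authors deposited 1 table of FPKM values by Ensembl gene. The tools listed in the submitters' processing notes are Cufflinks 2.1.1, CASAVA 1.8.2 and STAR 2.4.0. Their genome build and annotation were not given in sources used here. Gene names, coordinates and exons come from GENCODE M21 (GRCm38), which named 22671 of the 23474 genes. Read counts were not used here, and the depth of each library, estimated roughly from values of FPKM times kilobases between 0.03 and 0.1, was 13.8 to 15.8 in units of 1e6 fragments.

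log2(FPKM + 1) was tested with limma 3.58.1 in R 4.3.3 (variance trend, Benjamini-Hochberg adjustment, 4 residual degrees of freedom) on 10476 genes averaging 1 FPKM or more. Fold changes on this scale understate those of low genes. Tables and plots were made with Python 3.11.15, pandas 2.3.3 and matplotlib 3.10.9. Tested on simulated data with 200 of 10476 genes changed between BT and HFD, the fit recovered 95% of changes of 1 and 100% of changes of 2 on the log2 scale, with 13 false calls of 208. Changes below 1, as in every member, were not simulated, so their recovery is not known. The simulated noise was drawn independently for each gene and library, with no trend with transcript length. The rate of false calls in the real libraries is therefore not known from it.

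The members and lists were chosen with earlier results of these data known. The genes named were the 10 members, each list gene past the threshold or the 2 with the smallest p where none passed, defining markers at 0 or below the filter, and the 5 nearest profiles. Other genes named, and the ratio of Stab1 to Stab2, were chosen after their values were seen. The alternatives were another pseudocount, 2 other filters, 3 other scalings, removal of the length and GC trend, 3 other variance settings, blocking on the replicate number, and omitting 1 library at a time.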

Additional observations from a re-analysis of the deposited data

How the results depend on the processing

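The number of genes passing was 545 with no filter on low values and 173 to 1536 without 1 library. Among the 10 members, 1 passed with the length and GC trend removed, where 956 of 10403 genes did. Without 1 library 0 to 2 members passed, the 2 being Stab1 and Plvap without HFD replicate 1, where 1365 of 10476 genes did. Over the 5 endothelial lists, 4 of 48 tested genes passed with quantile normalization, where 1570 of 10476 genes did. With the length and GC trend removed 5 of the 48 passed, a share near that of all genes, and 0 to 5 passed without 1 library. With the replicate block, 1808 genes, 2 members (Stab1, adjusted p = 0.0304, and Plvap, adjusted p = 0.0412) and 4 endothelial genes passed. Same-numbered libraries deviated together only weakly (r across genes 0.163, 0.0972 and 0.147), so the numbers were not taken as pairs, although each library correlated best with its own number. Of 163 alternative values of the members, 140 kept direction and side, 5 moved past the threshold and 18 reversed, none of the last past the threshold. Leaving out 1 library moved Lyve1 between -0.26 and 0.14, Pecam1 between -0.0764 and 0.0788, Cdh5 between -0.0666 and 0.20, Eng between -0.16 and 0.22 and Tek to at most 0.0922. Lyve1 reversed without HFD replicate 3. Pecam1 reversed to -0.0487 (median-of-ratios), -0.10 (quantile), -0.0710 (length and GC) and -0.0255 (array weights), and without HFD replicate 2, BT replicate 1 (-0.0249) or BT replicate 3 (-0.0052). Cdh5 reversed to -0.0282 (quantile), -0.0028 (length and GC), -0.0115 (without HFD replicate 2) and -0.0666 (without BT replicate 1). Eng reversed to -0.0073 (median-of-ratios), -0.16 (without HFD replicate 1) and -0.11 (without BT replicate 2). Tek reversed to 0.0378 (rescaled to the same sum), 0.0922 (without HFD replicate 1) and 0.0059 (without BT replicate 3). The cause was not tested. The median of the members ran from -0.12 to 0.07 over settings that kept all 10. Of the genes passing, 55.7% were higher with BT without HFD replicate 3 and 28.3% without BT replicate 1.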
